A study of Mus musculus with 6 samples.

Results

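Levels of 10 inflammatory cytokine and enzyme genes were compared between Lyve-1+ and Lyve-1- macrophages of the mouse mammary gland. The genes were chosen by symbol as *Tnf*, *Il6*, *Il12a*, *Il12b*, *Il23a*, *Il10*, *Lif*, *Osm*, *Ptgs2* and *Nos2*, and all 10 were found among the 24061 gene symbols of the count table. RNA-seq had been run on 6 libraries of sorted CD45+CD11b+F4/80+ cells, 3 of them Lyve-1+ and 3 Lyve-1-. Every library was a pool of the #4 inguinal glands of 4 female FVB/N mice with no treatment named in the labels, taken at 6 weeks of age for replicate 1 and at 10 weeks for replicates 2 and 3. Glands were freed of the lymph node and digested with collagenase and DNase I at 37°C before the sort. The gate rests on surface markers alone, so other cells that carry CD11b and F4/80 could enter it, and a lower level in a bulk library may mean fewer cells of a type or less RNA per cell, which cannot be told apart here.

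TNF, IL-6 and IL-12 are cytokines that macrophages and dendritic cells release when NF-κB and AP-1 are activated, and IL-10 is the cytokine that restrains their production. IL-6, leukemia inhibitory factor (LIF) and oncostatin M (OSM) signal through the shared receptor chain gp130 to STAT3, whereas IL-12 and IL-23 share the subunit encoded by *Il12b* and differ in their partner, encoded by *Il12a* or *Il23a*. Cyclooxygenase 2, encoded by *Ptgs2*, makes the precursor of the prostaglandins, and inducible nitric oxide synthase, encoded by *Nos2*, makes nitric oxide from arginine. In the mammary gland, LIF, OSM and STAT3 are best known for their part in involution after lactation.

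Libraries held between 6478007 and 21406839 counts. Genes with counts numbered 20353 in Lyve-1- replicate 3, and 18665 and 15087 in Lyve-1+ replicates 1 and 2. They numbered 11958 and 12806 in Lyve-1- replicates 1 and 2, and 12098 in Lyve-1+ replicate 3. Levels are given as CPM, the counts of a gene relative to the size of its library, after TMM normalization, and a count of 0 allowed up to between 0.144 and 0.437 CPM (3 counts in a library, which covers counting error only). *Lyve1*, the gene of the sorted marker, lay between 1.43 and 7.43 CPM in the Lyve-1- libraries and between 597 and 2350 CPM in the Lyve-1+ libraries. Of 9 macrophage markers, 8 were in the table and all had counts in every library, with sums of 3820 to 5180 CPM in Lyve-1- and 5260 to 6640 CPM in Lyve-1+ libraries. The marker not found under its symbol was *Adgre1*, which encodes F4/80, so the level of this gating marker was not checked. Libraries stood apart in their counts over 1114 olfactory receptor genes, which macrophages are not known to transcribe. Lyve-1- replicate 3 held 9406 such counts, Lyve-1+ replicates 1 and 2 held 3617 and 4160, and the other 3 libraries held between 122 and 331. Their level per kb of exon is used below as the background of each library.

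*Tnf* was the most abundant of the genes per length, and *Il12a*, *Il23a* and *Nos2* were the least abundant. On the scale of CPM per kb of exon, the mean over the 6 libraries was 148 ± 106 (SD, n = 6) for *Tnf*, 84.3 ± 51.7 for *Il10*, 60.3 ± 18.9 for *Osm*, 59.4 ± 35.1 for *Ptgs2* and 35 ± 22 for *Il6*. *Il12b* followed at 9.04 ± 8.54 and *Lif* at 3.91 ± 2.13 CPM per kb, and *Il12a*, *Il23a* and *Nos2* stood at 0.696 ± 1.52, 0.484 ± 0.798 and 0.22 ± 0.35. Neighbours in the upper part of this order did not separate, since *Il10* exceeded *Osm* in 3 of 6 libraries, *Osm* exceeded *Ptgs2* in 3 of 6, and *Ptgs2* exceeded *Il6* in 4 of 6. The step from *Il6* down to *Il12b* was present in 6 of 6 libraries. *Osm* varied least of the genes found in all libraries, with its highest library 2.4 times its lowest, whereas *Tnf* spanned 7.5 times, *Il10* 11.5 times and *Il12b* 84 times.

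**Figure D1:**
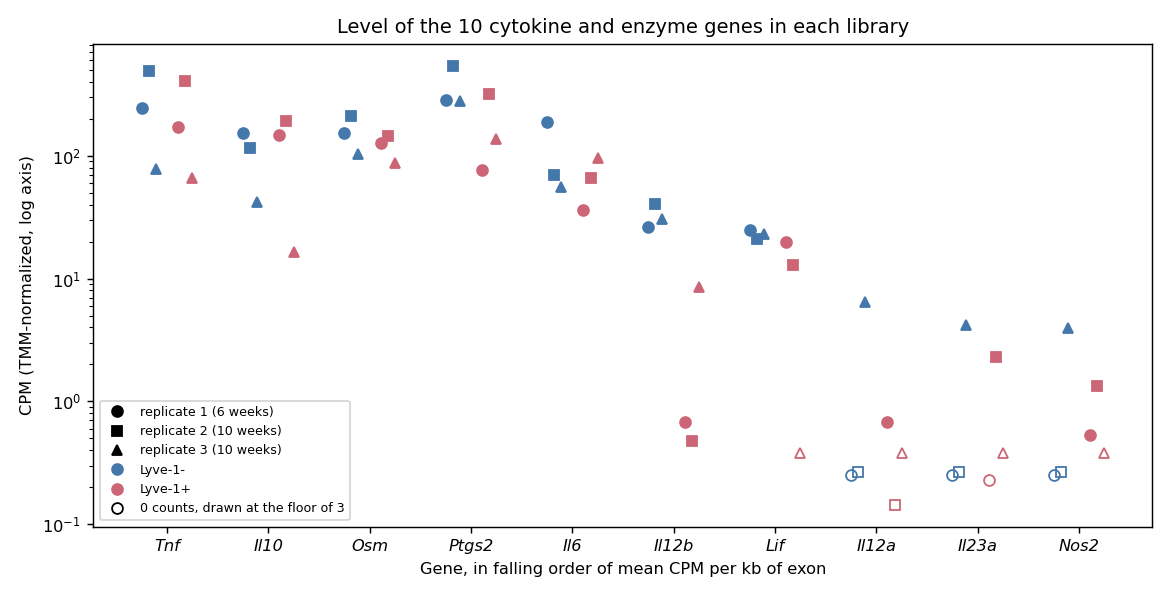
Level of each gene in each library in CPM on a log axis, with Lyve-1- libraries in blue, Lyve-1+ libraries in red and replicates 1, 2 and 3 as circles, squares and triangles. *Il12b* and *Lif* are the genes whose blue symbols all lie above their red ones, and open symbols mark counts of 0 drawn at the level of 3 counts.

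The subsets were then compared with edgeR over 13348 genes that passed a filter on low counts, with calls set at adjusted p values below 0.01 and log2 fold changes beyond 1 in either direction. Of the 10 genes, 7 passed the filter, and 6 of these had a lower estimate and 1 a higher one in Lyve-1+ cells, where 50.6% of all genes tested were lower. None of the 7 was called by edgeR, against 0.112% of all genes, and none by DESeq2, against 0.952%. At an unadjusted p under 0.05 edgeR found 2, *Il12b* and *Ptgs2*, both lower in Lyve-1+ cells, where 3.5% of all genes were lower at that level. The median log2 fold change of the 7 genes was -0.66, beside -0.01 for all genes. *Il12a*, *Il23a* and *Nos2* did not pass the filter and took no part in these counts. The p-values measure the spread between pools of mice, and with 3 pools a subset the intervals of most genes were wide.

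**Figure D2:**
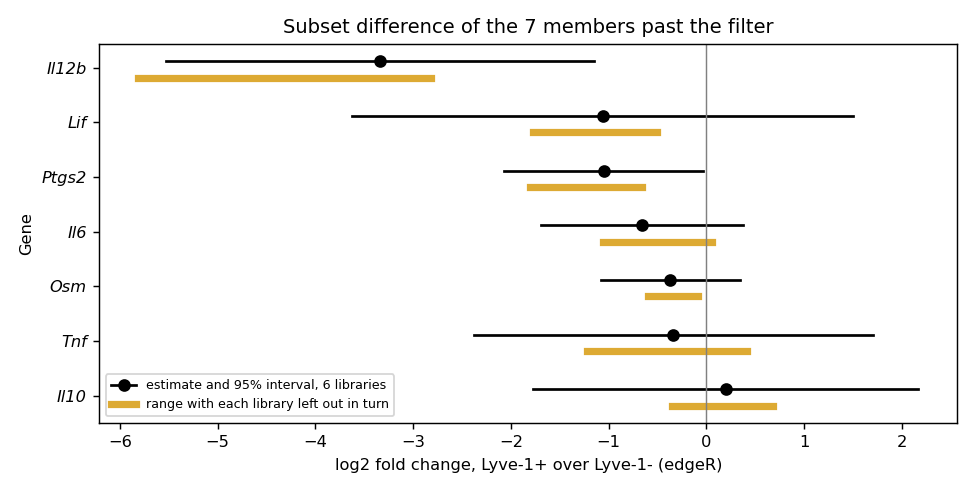
Log2 fold change of Lyve-1+ over Lyve-1- for the 7 genes that passed the filter, with the edgeR estimate and its 95% interval in black and, in yellow, the range of the estimate when each library is left out in turn. Intervals of *Il12b* (-5.53 to -1.15) and *Ptgs2* (-2.07 to -0.03) lie below 0 before adjustment, and the other 5 include 0.

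*Tnf* encodes the cytokine that gives the group its name and lies on the minus strand at chr17:35199381-35202007 (mm10). It measured 242.9, 491.3 and 78.43 CPM in Lyve-1- replicates 1, 2 and 3, and 171.5, 404.9 and 65.52 CPM in the Lyve-1+ replicates. Replicate 2 was the highest and replicate 3 the lowest library in both subsets, and the groups overlapped over nearly their whole range. The log2 fold change was -0.34 ± 0.84 (SE, edgeR adjusted p = 1). Its 95% interval, from -2.38 to 1.71, leaves differences of several fold in either direction possible at this number of pools. That fit does not use the replicate number. Between same-numbered libraries the log2 ratio of Lyve-1+ to Lyve-1- was -0.5, -0.28 and -0.26 for replicates 1, 2 and 3. The labels do not state whether these share mice. With the replicate number as a block the log2 fold change was -0.35 (edgeR unadjusted p = 0.2, adjusted p = 0.938). Without the block, the estimate was 0.42 when Lyve-1- replicate 2 was left out and 0.05 when Lyve-1+ replicate 3 was.

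*Tnf* mRNA is known for AU-rich repeats in its 3′ untranslated region, to which tristetraprolin, the product of *Zfp36*, binds to shorten the life of the message. The nonamer TTATTTATT, searched on the gene strand in the longest annotated 3′ untranslated region, occurred in 5 of the 10 genes, which were *Tnf*, *Lif*, *Il12a*, *Il23a* and *Ptgs2*, and was absent from those of *Il6*, *Il12b*, *Il10*, *Osm* and *Nos2*. Among 20979 protein-coding genes of the mm10 annotation 7.6% held it, and among 11770 with a region within the lengths of the 10 genes 8.3% did. *Tnf* held 5 copies, 4 of them within the stretch shown, *Lif* held 2 and the other 3 genes 1 each. Genes without the nonamer still held the shorter AU-rich pentamer ATTTA, with 10 copies in *Il6*, 6 each in *Il12b*, *Il10* and *Osm*, and 3 in *Nos2*. No share over all genes is given here for the pentamer. These 30-base stretches show how the repeats are packed in *Tnf* beside the single copies in *Ptgs2* and *Il23a*, with the nonamers in capitals.
Tnf, chr17:35199674-35199703, minus strand: ttaTTATTTATTTATTATTTATTTATTtgc
Ptgs2, chr1:150105789-150105818, plus strand: actgaccatatTTATTTATTtatgtgaaga
Il23a, chr10:128296184-128296213, minus strand: atagatgatggTTATTTATTctatttataa
*Zfp36* itself was abundant in both subsets, between 1330 and 3060 CPM, with a log2 fold change of -0.04 ± 0.29 (SE, edgeR adjusted p = 1). A match of letters is a description of these messages and was not tied to any difference between the subsets.

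Among the genes of the IL-12 family, *Il12b* showed the largest difference of the 7 genes tested and its groups did not overlap, whereas *Il12a* and *Il23a* were detected in few libraries. *Il12b* encodes the chain common to IL-12 and IL-23 and lies at chr11:44400063-44414033 on the plus strand. It measured 26.38, 40.25 and 30.32 CPM in the Lyve-1- libraries (mean 32.3 ± 7.14, SD, n = 3) and 0.686, 0.479 and 8.57 CPM in the Lyve-1+ libraries (3.24 ± 4.61). These values came from 314, 453 and 208 counts on one side and from 9, 10 and 68 on the other. The lowest Lyve-1- library thus lay above the highest Lyve-1+ library, and Lyve-1+ replicate 3 stood apart from the other Lyve-1+ libraries.

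The ratio of the *Il12b* means was 9.96-fold in favour of the Lyve-1- subset. The fitted log2 fold change was -3.34 ± 1.02 (SE), with an unadjusted p of 0.00548 in edgeR and an adjusted p of 0.253, so that the difference did not pass the threshold. DESeq2 gave the same estimate with an adjusted p of 0.0453, also above 0.01. Without Lyve-1+ replicate 3 the log2 fold change was -5.81 and passed (edgeR adjusted p = 0.00168). Over the alternatives the edgeR adjusted p ran from 0.00168 to 0.815, with a lower level in the Lyve-1+ subset in each of them. Non-overlap in this direction was seen for 6.5% of all genes tested.

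In Lyve-1+ replicates 1 and 2 the *Il12b* counts were close to the background of those libraries. At the count density of the olfactory receptor genes, a gene of its exon length would have taken 2 and 2.3 counts there, and 88 and 68 of the 1114 olfactory receptor genes had at least as many counts per kb. The 68 counts in Lyve-1+ replicate 3 stood against 0.102 at that density, with 2 olfactory receptor genes as high, so that *Il12b* was clearly detected in 1 of the Lyve-1+ libraries. All Lyve-1- libraries were far above background, and no olfactory receptor gene reached their counts per kb. After this background was subtracted from every gene, the log2 fold change of *Il12b* was -3.4 (edgeR adjusted p = 0.279).

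Markers of mature dendritic cells, which are known for high IL-12 production and for CCR7, the receptor that guides them to lymph nodes, moved in the same direction as *Il12b*. Of 9 such markers, 8 passed the filter, all 8 were lower in Lyve-1+ cells at an unadjusted p under 0.05 (3.5% of all genes), 6 did not overlap between the groups (6.5%), and their median log2 fold change was -2.84. edgeR called none of them and DESeq2 called 2, *Ccr7* and *Fscn1*. In other edgeR fits, 4 of the 8 were called with age as a covariate, 4 with the replicate number as a block, 3 with the 10-week libraries alone and 1 without Lyve-1- replicate 1. Over all genes these fits called 58 of 13348, 140 of 13348, 18 of 13625 and 65 of 15388, against 15 of 13348 in the main fit. Since *Ccr7*, *Fscn1* and *Cacnb3* are in the gene list that the study chose on these libraries, the direction of the markers is not independent evidence. *Ccr7* measured 139, 458 and 505 CPM in the Lyve-1- libraries and 14.8, 59.6 and 107 CPM in the Lyve-1+ libraries. *Ccl22*, a chemokine of mature dendritic cells, measured 139, 387 and 722 against 3.28, 33.7 and 54.8 CPM. Both were therefore lower in every Lyve-1+ library but present in all of them.

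The summed level of the marker list lay between 2640 and 4170 CPM in the Lyve-1- libraries and between 1190 and 1830 CPM in the Lyve-1+ libraries, with *Cd83* the largest contributor in each library. *Il4i1* was at 0 in every library except Lyve-1- replicate 3. Within the Lyve-1- subset the order of *Il12b* (replicates 2, 3, 1) was also that of *Relb*, *Socs2* and the summed list. It was not that of *Ccr7*, *Ccl22*, *Fscn1*, *Ccl17* and *Cacnb3* (replicates 3, 2, 1) or of *Cd83* (replicates 2, 1, 3). Within the Lyve-1+ subset the order of *Il12b* was replicates 3, 1, 2, which neither the summed list nor any of the 8 tested markers had. *Relb*, *Socs2* and the summed list were highest in Lyve-1+ replicate 2, where *Il12b* was lowest. The count at an unadjusted p under 0.05 was 2 of 8 without Lyve-1- replicate 2 and between 5 and 8 of 8 without any other single library. The 8 conventional dendritic cell markers were also all lower in estimate, with a median of -0.94, but none had an unadjusted p under 0.05 in edgeR. What part these cells had in the level of *Il12b* was not tested.

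**Figure D3:**
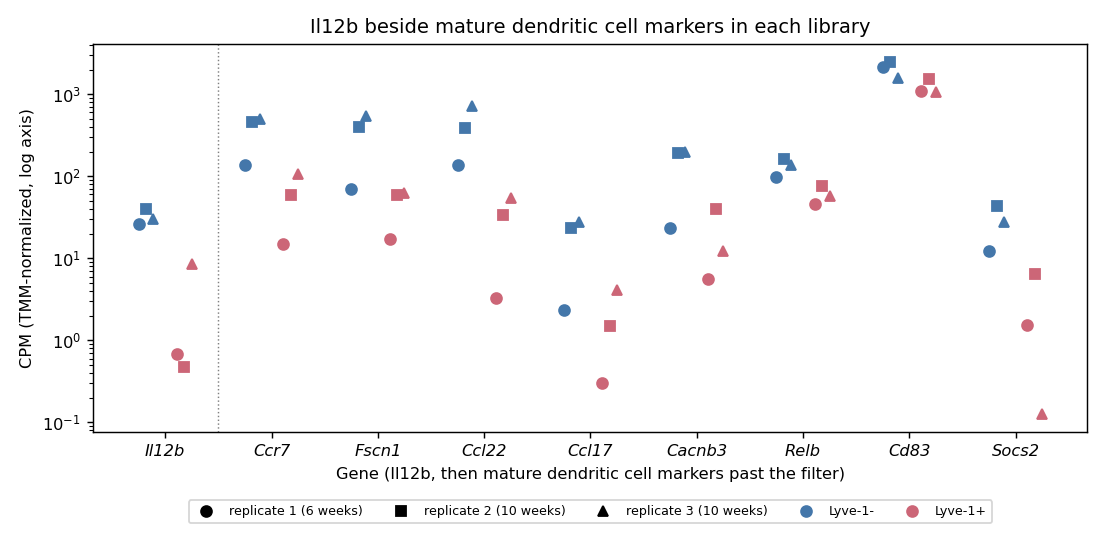
*Il12b* and the 8 mature dendritic cell markers that passed the filter, in CPM on a log axis, by library (Lyve-1- blue, Lyve-1+ red; circles, squares and triangles for replicates 1, 2 and 3). *Il12b* and 6 of the markers have every blue symbol above every red one, while *Ccl17* and *Cacnb3* overlap.

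*Il12a*, the partner of *Il12b* in IL-12 (chr3:68690644-68698547, plus strand), had counts in a pair of libraries, 44 in the third Lyve-1- pool and 9 in the first Lyve-1+ pool, and 0 in the other 4. *Il23a*, its partner in IL-23 (chr10:128296139-128298752, minus strand), had 29 counts in the third Lyve-1- pool, 48 in the second Lyve-1+ pool and 0 elsewhere. Libraries with counts were thus among the 3 with high olfactory receptor counts. At the density of those genes, *Il12a* would have taken 4.49 and 1.73 counts in its 2 libraries, and 16 and 74 olfactory receptor genes of 1114 had as many counts per kb. For *Il23a* the values were 5.93 and 2.62 counts, and 79 and 22 genes. In Lyve-1- replicates 1 and 2, where *Il12b* had 314 and 453 counts, neither partner had a single count. By counting error alone this allows up to 0.252 and 0.267 CPM. Those libraries had counts for 11958 and 12806 genes, against 20353 in Lyve-1- replicate 3, so loss of rare messages there could also give a 0, which was not tested.

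**Figure D4:**
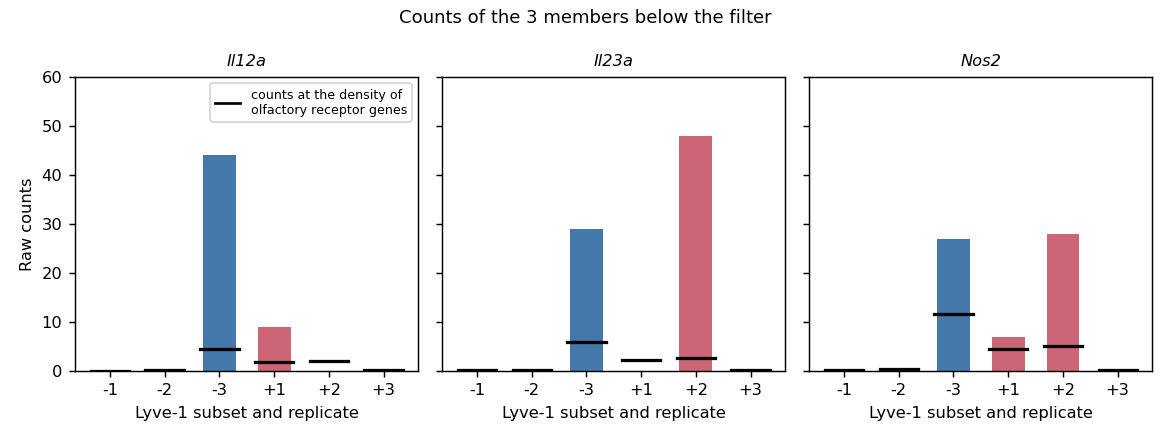
Raw counts of *Il12a*, *Il23a* and *Nos2* in each library as bars (Lyve-1- blue, Lyve-1+ red, numbered by replicate), with a black line at the counts that the density over olfactory receptor genes would give. Counts appear only in Lyve-1- replicate 3 and Lyve-1+ replicates 1 and 2, the 3 libraries with high olfactory receptor counts.

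The 250 bases before the start of *Il12b*, *Lif* and *Il6* were read from mm10 at the starts given by RefSeq, for the 2 genes whose groups did not overlap and for the gene whose promoter held most kinds of motif. Motifs were searched on both strands as the κB motif by name, AP-1 (TGANTCA), the cyclic AMP response element (TGACGTCA) and C/EBP (TTGNGCAA), and on the gene strand as the TATA box (TATAAA), and matches are in capitals.
Il12b, chr11:44399813-44400062, plus strand: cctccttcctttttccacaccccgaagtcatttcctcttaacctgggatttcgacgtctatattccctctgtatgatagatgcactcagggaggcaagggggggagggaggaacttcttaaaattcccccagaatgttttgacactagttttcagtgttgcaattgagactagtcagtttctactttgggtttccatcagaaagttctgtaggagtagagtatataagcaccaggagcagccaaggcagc
Lif, chr11:4257318-4257567, plus strand: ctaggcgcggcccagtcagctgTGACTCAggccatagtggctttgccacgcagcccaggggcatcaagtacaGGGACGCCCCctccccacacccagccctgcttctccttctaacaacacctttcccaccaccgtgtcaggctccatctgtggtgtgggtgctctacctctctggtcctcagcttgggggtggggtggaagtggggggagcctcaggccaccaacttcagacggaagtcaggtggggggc
Il6, chr5:30012864-30013113, plus strand: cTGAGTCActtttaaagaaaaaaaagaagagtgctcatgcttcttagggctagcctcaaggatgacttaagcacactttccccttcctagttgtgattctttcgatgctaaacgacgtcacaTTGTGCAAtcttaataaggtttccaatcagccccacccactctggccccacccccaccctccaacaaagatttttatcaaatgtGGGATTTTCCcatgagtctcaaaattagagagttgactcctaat
The *Il6* window held a κB match at 44 to 35 bases before the start, a C/EBP match at 128 to 121 and an AP-1 match at 249 to 243. That of *Lif* held a κB match at 178 to 169 and an AP-1 match at 228 to 222, and that of *Il12b* held none of these letters. The search took fixed letters only, so sites that differ from them would be missed, and a window without a match may still hold a site. Over 32851 promoters of this length, 7.25% held the κB motif, 6.75% AP-1, 1.55% the cyclic AMP response element, 2.61% C/EBP and 7.59% the TATA box. Of the other genes in the promoter table, *Ptgs2* held a C/EBP match at 69 to 62 bases, *Tnf* a TATA box at 29 to 24 bases, and *Il12a* none.

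The IL-6 family was expressed in both subsets, and none of its 3 genes separated them by the test. *Il6* (chr5:30013114-30019981, plus strand) measured 186.3, 69.83 and 55.83 CPM in the Lyve-1- libraries and 35.81, 66.16 and 95.38 CPM in the Lyve-1+ libraries. The highest value was that of the 6-week Lyve-1- library and the lowest that of the 6-week Lyve-1+ library. The log2 fold change was -0.66 ± 0.48 (SE, edgeR adjusted p = 0.973; 95% interval -1.69 to 0.37). With the 10-week libraries alone it was 0.35, and without Lyve-1- replicate 1 it was 0.06, so the direction rested on that single 6-week pool. The interaction of subset and age was 2.74 on the log2 scale with an unadjusted p of 0.00249 in edgeR, but with an adjusted p of 0.612, and it rests on 1 library of each subset at 6 weeks.

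*Osm* (chr11:4236420-4241026, plus strand) was the steadiest gene, at 152.3, 208.7 and 102.8 CPM in the Lyve-1- libraries and 126.4, 144.9 and 86.94 CPM in the Lyve-1+ libraries. The groups overlapped, and the log2 fold change was -0.37 ± 0.33 (SE, edgeR adjusted p = 1). Its interval, from -1.08 to 0.34, was the narrowest of the 7 genes. *Lif* (chr11:4257557-4272514, plus strand) starts 16.5 kb beyond the end of *Osm* on the same strand. It measured 24.95, 21.06 and 23.03 CPM in the Lyve-1- libraries and 19.96, 12.94 and 0 CPM in the Lyve-1+ libraries. The Lyve-1- libraries were close together and all above the Lyve-1+ libraries, and 6.5% of all genes did not overlap in this direction. By counting error alone, the count of 0 in Lyve-1+ replicate 3 allowed at most 0.378 CPM.

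The log2 fold change of *Lif* was -1.06 ± 1.18 (SE, edgeR adjusted p = 1; 95% interval -3.63 to 1.5), and it was -0.51 without Lyve-1+ replicate 3. All *Lif* values above 0 exceeded the background, with 158 counts in Lyve-1- replicate 3 where the olfactory receptor density gave 11.5, and at most 4 of the 1114 olfactory receptor genes had as many counts per kb in any of these libraries. Of 10 related cytokines of the IL-6, IL-12 and IL-10 families, only 3 passed the filter. *Ebi3*, a partner chain of IL-27 and IL-35, had the lowest estimate at -0.86 ± 0.75 (SE, edgeR adjusted p = 1), and *Il11* the highest estimate at 0.6 ± 2.8 (SE, edgeR adjusted p = 1), from levels of at most 2.33 CPM. None of the 3 was called or had an unadjusted p under 0.05 in edgeR, and DESeq2 called none.

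*Il10*, the counter-regulatory cytokine (chr1:131019845-131024974, plus strand), did not separate the subsets. It measured 151.6, 114.7 and 41.98 CPM in the Lyve-1- libraries and 147.8, 190.1 and 16.51 CPM in the Lyve-1+ libraries. Replicate 3 was the lowest in both subsets, as it was for *Tnf*. The log2 fold change was 0.2 ± 0.83 (SE, edgeR adjusted p = 1), with a 95% interval from -1.77 to 2.17. It was -0.17 when Lyve-1- replicate 3 was left out and -0.35 when Lyve-1+ replicate 2 was, so no direction can be given. Per kb of exon, *Tnf* was 1.28, 3.42 and 1.49 times *Il10* in the Lyve-1- libraries and 0.927, 1.7 and 3.17 times in the Lyve-1+ libraries, with overlap between the subsets and *Il10* the higher of the pair in Lyve-1+ replicate 1. On the same scale *Il12b* was 9.05%, 6.83% and 32.2% of *Tnf* in the Lyve-1- libraries and 0.333%, 0.0986% and 10.9% in the Lyve-1+ libraries.

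Of the inflammatory enzymes, *Ptgs2* was high in both subsets and lower on average in the Lyve-1+ subset, and *Nos2* was near background. *Ptgs2* (chr1:150100031-150108227, plus strand) measured 283.8, 537.8 and 279.2 CPM in the Lyve-1- libraries (mean 367 ± 148, SD, n = 3) and 76.42, 317.9 and 136.8 CPM in the Lyve-1+ libraries (177 ± 126). Lyve-1+ replicate 2 exceeded Lyve-1- replicates 1 and 3, so the groups overlapped. The log2 fold change was -1.05 ± 0.47 (SE), a ratio of means of 2.07 in favour of the Lyve-1- subset, with an unadjusted p of 0.0451 in edgeR and an adjusted p of 0.628. The DESeq2 adjusted p was 0.358. The estimate ran from -0.66 without Lyve-1- replicate 2 to -1.8 without Lyve-1+ replicate 2, where the edgeR adjusted p was 0.0129. With the 10-week libraries alone it was -0.86 (edgeR adjusted p = 1).

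*Ptgs2* exceeded *Ptgs1*, the constitutive cyclooxygenase gene, in all libraries. Per kb of exon the ratio was 7.72, 42.4 and 10.9 in the Lyve-1- libraries and 1.9, 21.7 and 18.4 in the Lyve-1+ libraries. Of 19 other genes of prostanoid and leukotriene synthesis and response, 16 passed the filter, with 7 lower, 9 higher and a median log2 fold change of 0.17. None was called by edgeR or DESeq2, and the 4 with an unadjusted p under 0.05 in edgeR were all higher in the Lyve-1+ subset (4.2% of all genes). They were *Ltc4s* (leukotriene C4 synthase), *Alox5* (5-lipoxygenase), *Lta4h* (leukotriene A4 hydrolase) and *Hpgds* (prostaglandin D synthase), of which the first 3 belong to the leukotriene and not the cyclooxygenase branch. *Ltc4s* had the highest estimate, going from 1.18, 2.04 and 5.25 CPM to 61.8, 12.3 and 14.7 CPM, a log2 fold change of 3.4 ± 0.93 (SE, edgeR adjusted p = 0.168). *Ptger2*, a receptor for prostaglandin E2, had the lowest estimate at -2.34 ± 1.43 (SE, edgeR adjusted p = 0.882). Mast cells also express *Hpgds*, *Ltc4s* and *Alox5*, and 5 of 6 mast cell markers tested were higher in estimate in the Lyve-1+ subset. The other, *Kit*, was lower at -2 ± 0.96 (SE, edgeR adjusted p = 0.678). The marker sums were 39.3, 79.5 and 96.4 CPM in the Lyve-1- libraries and 42.7, 255 and 123 CPM in the Lyve-1+ libraries. Among Lyve-1+ libraries, *Ltc4s* and *Alox5* (236, 71 and 113 CPM) were highest in replicate 1 and lowest in replicate 2. *Hpgds* (136, 159 and 158 CPM) was highest in replicate 2. The part of mast cells in these levels was not tested.

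*Nos2* (chr11:78920787-78960254, plus strand) had 27 counts in the third Lyve-1- pool, 7 and 28 in the first and the second Lyve-1+ pool, and 0 in the other 3 libraries. The olfactory receptor density of these 3 libraries would have given 11.6, 4.48 and 5.15 counts, and 191, 207 and 61 olfactory receptor genes had as many counts per kb. The gene thus did not stand clear of background in any library. Of 13 other genes of nitric oxide synthesis and arginine use, 11 passed the filter, 6 lower and 5 higher, with a median log2 fold change of -0.02 and none called by edgeR or DESeq2. *Arg2*, the mitochondrial arginase, had the lowest estimate at -1.71 ± 0.62 (SE, edgeR adjusted p = 0.406), and *Spr*, which makes the cofactor tetrahydrobiopterin, the highest estimate at 1.05 ± 0.77 (SE, edgeR adjusted p = 0.98). *Arg2* and *Odc1*, ornithine decarboxylase, were the 2 with an unadjusted p under 0.05 in edgeR, both lower in the Lyve-1+ subset (3.5% of all genes). *Ass1*, which regenerates arginine, was listed at 0 in every library.

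The receptor chains of these cytokines did not separate the subsets by the test. Of 11 receptor chains, 10 passed the filter, 5 lower and 5 higher, with a median log2 fold change of 0 and none called or under an unadjusted p of 0.05 in edgeR, nor called by DESeq2. *Tnfrsf1a*, the broadly expressed TNF receptor, had the highest estimate at 0.57 ± 0.31 (SE, edgeR adjusted p = 0.781). It measured 129, 118 and 70.8 CPM in the Lyve-1- libraries and 179, 141 and 152 CPM in the Lyve-1+ libraries, without overlap. Non-overlap with the Lyve-1+ libraries above was seen for 7.82% of all genes tested. *Il23r* had the lowest estimate at -2.05 ± 2.87 (SE, edgeR adjusted p = 1), from levels of at most 3.35 CPM, and *Il12rb1*, which did not pass the filter, reached at most 3.64 CPM. The IL-10 receptor chain *Il10ra* and the shared chain *Il6st* lay between 177 and 307 CPM and between 214 and 350 CPM over the 6 libraries.

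Downstream of TNF, the genes of NF-κB and of its feedback inhibitors were lower in estimate in the Lyve-1+ subset. Of 13 genes, all tested, 11 were lower and 2 higher, the median log2 fold change was -0.6, and 7 did not overlap between the groups, all with the Lyve-1- libraries above (6.5% of all genes). None was called by edgeR or DESeq2, and 7 had an unadjusted p under 0.05 in edgeR, all lower (3.5% of all genes). They were the subunit genes *Rel*, *Relb* and *Nfkb1*, the inhibitor genes *Nfkbia*, *Nfkbie* and *Tnfaip3*, which NF-κB itself is known to induce, and the kinase gene *Ikbkb*. *Rel* measured 499, 490 and 490 CPM in the Lyve-1- libraries and 174, 296 and 283 CPM in the Lyve-1+ libraries, a log2 fold change of -0.97 ± 0.27 (SE, edgeR adjusted p = 0.171).

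*Tnfaip3*, which encodes the inhibitor A20, measured 3030, 2660 and 2080 CPM against 1440, 1820 and 1200 CPM, a log2 fold change of -0.8 ± 0.24 (SE, edgeR adjusted p = 0.237). *Relb* had the lowest estimate at -1.16 ± 0.34 (SE, edgeR adjusted p = 0.203) and is also among the mature dendritic cell markers, and *Ikbkg* had the highest estimate at 0.24 ± 0.81 (SE, edgeR adjusted p = 1). The summed level of the list lay between 6180 and 7740 CPM in the Lyve-1- libraries and between 4150 and 5310 CPM in the Lyve-1+ libraries, so it did not overlap. With each library left out in turn, between 5 and 7 genes had an unadjusted p under 0.05, and with the 10-week libraries alone 3 did, with a median of -0.55. What part mature dendritic cells had in these levels was not tested.

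**Figure D5:**
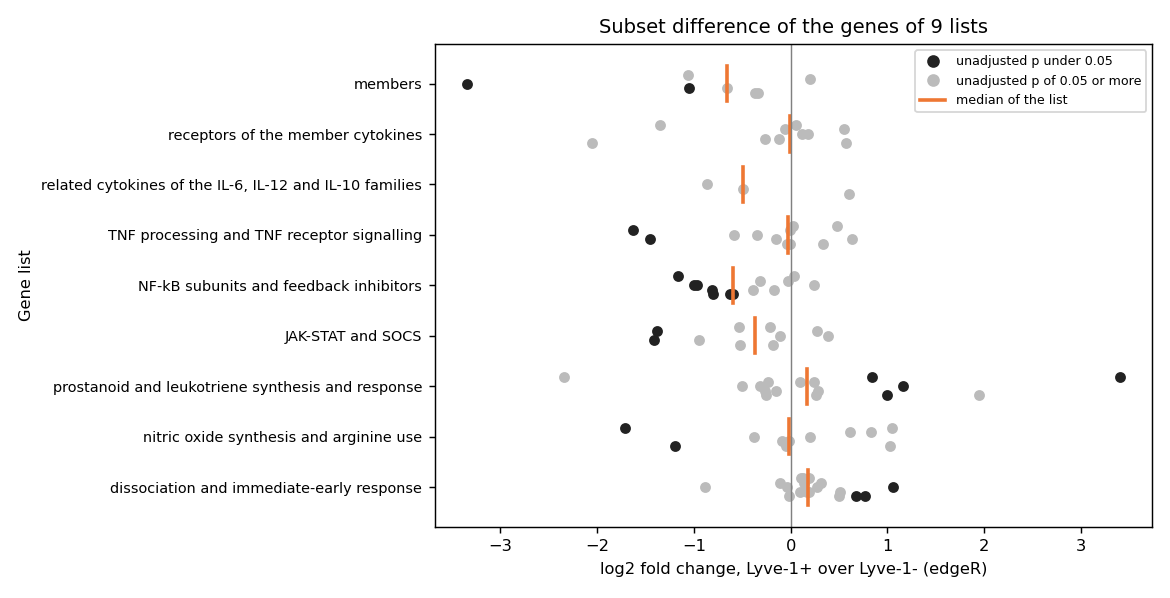
Log2 fold change of Lyve-1+ over Lyve-1- (edgeR) for the tested genes of 9 lists, 1 point a gene, dark where the unadjusted p is under 0.05, with the median of each list in orange. The NF-κB list has 7 dark points, all left of 0, while the receptors have none.

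Among 12 genes of TNF processing and TNF receptor signalling, 8 were lower and 4 higher, with a median log2 fold change of -0.03 and none called by edgeR or DESeq2. *Traf1* and *Birc2*, which encode partners of the TNF receptor complexes, were the 2 with an unadjusted p under 0.05 in edgeR, both lower (3.5% of all genes). *Traf1* had the lowest estimate at -1.63 ± 0.46 (SE, edgeR adjusted p = 0.222). *Rhbdf2*, needed for the protease that releases TNF from the membrane, had the highest estimate at 0.63 ± 0.33 (SE, edgeR adjusted p = 0.746). The protease gene itself, *Adam17*, had a log2 fold change of -0.01 ± 0.31 (SE, edgeR adjusted p = 1). Of 10 genes of JAK-STAT signalling, 8 were lower and 2 higher with a median of -0.37, and again none was called by edgeR or DESeq2. *Jak2*, a kinase used by IL-12 and gp130 receptors, had the lowest estimate at -1.41 ± 0.37 (SE, edgeR adjusted p = 0.145). *Jak2* and *Cish* were the 2 with an unadjusted p under 0.05 in edgeR, both lower in the Lyve-1+ subset (3.5% of all genes). *Socs3*, the feedback inhibitor of gp130 signalling, had the highest estimate at 0.39 ± 0.24 (SE, edgeR adjusted p = 0.874), with 493 to 581 CPM in the Lyve-1- and 593 to 800 CPM in the Lyve-1+ libraries.

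*Tnf*, *Il6*, *Ptgs2* and *Zfp36* are known to be induced while tissue is digested, so 18 genes of the dissociation and immediate-early response were read beside them. All 18 were tested, 4 had lower and 14 higher estimates in Lyve-1+ cells with a median of 0.18 on the log2 scale, and none was called by edgeR or DESeq2. The 3 with an unadjusted p under 0.05 in edgeR, *Jun*, *Fos* and *Egr1*, were all higher in the Lyve-1+ subset (4.2% of all genes). *Jun* had the highest estimate at 1.06 ± 0.27 (SE, edgeR adjusted p = 0.123) and is in the gene list the study chose on these libraries, and *Egr3* had the lowest estimate at -0.88 ± 0.51 (SE, edgeR adjusted p = 0.85). The summed level of the list was high in every library, between 11900 and 17700 CPM in the Lyve-1- and between 15100 and 23200 CPM in the Lyve-1+ libraries. How much of the level of *Tnf*, *Il6* or *Ptgs2* arose during digestion was not tested.

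The 10-week libraries were compared with those of 6 weeks in a model that also held the subset, and each subset had a single 6-week pool. None of the 7 genes was called by edgeR or DESeq2, as none of all genes was by edgeR (0%, with 3.33% at an unadjusted p under 0.05). By age *Ptgs2* alone had an unadjusted p under 0.05 in edgeR (0.0308, edgeR adjusted p = 1), with a log2 fold change of 1.02 ± 0.42 (SE) toward 10 weeks. Lyve-1- replicate 3, at 10 weeks, nevertheless had slightly less *Ptgs2* than the 6-week Lyve-1- library. For the other 6 genes the age estimate lay between -0.95 for *Lif* and 1.35 for *Il12b*, and the edgeR adjusted p was 1 for each. The subset difference did not differ with age by the test for any of the 7 genes, with an edgeR adjusted p of 0.612 for *Il6* and of 0.976 to 1 for the others, and 4.59% of all genes had an unadjusted p under 0.05 in this test.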

How the data were processed

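RNA was extracted with the RNeasy Mini kit and libraries were made with a stranded total RNA kit (SMARTer Pico). The authors mapped paired reads to mm10 with HISAT2 2.0.2 and summed them over gene symbols with featureCounts 1.5.0. The deposited values are raw counts without normalization. The annotation and the strand setting of the counting were not given in the sources used here, so antisense reads may be included, although no other annotated gene overlaps any of the 10 genes. The methods also name the removal of short genes and of a 6-week sample. No column of the count table was left unassigned to a sample.

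Counts were analysed in R 4.3.3 with edgeR 4.0.16 (filterByExpr by subset, TMM, quasi-likelihood F test with robust estimation, Benjamini-Hochberg adjustment over 13348 genes) and DESeq2 1.42.0. The subset was the only term, and age was tested in a model with the subset. Standard errors and 95% intervals are those of the edgeR fit. Exon lengths came from GENCODE M21 (mm10), to which 22749 symbols matched directly and 921 through a synonym. Promoters came from RefSeq (GRCm38.p6, the assembly of mm10), whose table held *Tnf*, *Il6*, *Il12a*, *Il12b*, *Lif* and *Ptgs2*, and the 3′ untranslated regions from GENCODE. The fits were tested on simulated data.

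The 10 genes and the gene lists were chosen with earlier results of these data known. All 10 genes are named, and from each pathway list the genes called and those with the highest and the lowest log2 fold change. Other list genes (such as *Rel*, *Tnfaip3*, *Adam17* and those under an unadjusted p of 0.05) and the marker genes shown were named after their values were seen. Replicate numbers were not used to pair the libraries in the main fit, and the labels do not state whether same-numbered libraries share mice.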

Additional observations from a re-analysis of the deposited data

How the results depend on the processing

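Of the alternatives, 2 moved 1 of the 7 genes tested past the threshold. With the replicate number as a block 1 gene was called (*Ptgs2*, -1.22 on the log2 scale, edgeR adjusted p = 0.00966), and 1 (*Il12b*) when Lyve-1+ replicate 3 was left out, so that leaving out each replicate in turn gave between 0 and 1. Under the block the count over all genes went from 15 to 140, the adjusted p of *Il12b* was 0.0166 and *Il10* had a log2 fold change of -0.19. Deviations of same-numbered libraries from their subset means correlated at -0.05, 0 and -0.15 for numbers 1, 2 and 3. Libraries of different numbers gave values from -0.1 to 0.16. With 3 libraries a subset these values cannot settle whether same-numbered libraries came from the same mice, which the labels do not state. The main fit treated them as unpaired. Over all genes, DESeq2 called 151, the fit without a filter 188, a minimum of 10 counts in every library 32, age as a covariate 58, and an adjusted p under 0.05 without a fold limit 84, while leaving out each replicate in turn gave between 1 and 81, with 1 without Lyve-1- replicate 3 (edgeR throughout but for the first). For age, DESeq2 called 14 of all genes and an adjusted p under 0.05 gave 3, and leaving out each 10-week replicate gave between 0 and 20, with none of the 10 genes in any of them.

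Directions turned for *Tnf* (0.42 when Lyve-1- replicate 2 was left out and 0.05 for Lyve-1+ replicate 3), *Il6* (0.35 with the 10-week libraries alone and 0.06 without Lyve-1- replicate 1) and *Il10* (-0.19 under the replicate block, -0.17 when Lyve-1- replicate 3 was left out and -0.35 for Lyve-1+ replicate 2). Leaving out each replicate in turn gave -1.22 to 0.42 for *Tnf*, -1.06 to 0.06 for *Il6* and -0.35 to 0.68 for *Il10*. *Il12b*, *Lif*, *Osm* and *Ptgs2* kept their direction in every alternative that could be run on them, from -5.81 to -2.82, -1.97 to -0.51, -0.6 to -0.09 and -1.8 to -0.66. A minimum of 10 counts in every library leaves out *Il12b* and *Lif*. The cause of these shifts was not tested. In the main fit, which treats libraries as unpaired, the intervals of *Tnf*, *Il10* and *Lif* left differences of several fold possible with 3 pools a subset. Under the replicate block the log2 fold change of *Tnf* was -0.35 (edgeR adjusted p = 0.938). Scaling by DESeq2 size factors or by total counts moved the median of all genes by -0.03 and -0.07 and no call among the 10 genes.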

Other observations

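Other marker lists were read for cells that the gate could hold, and edgeR called none of their genes. Neutrophil markers were higher in the Lyve-1+ subset in 6 of 7 tested genes, with a median log2 fold change of 1.35 and sums of 133 to 213 CPM against 267 to 625 CPM, and *Cxcr2*, a chemokine receptor of neutrophils, had the highest estimate at 4.73 ± 1.78 (SE, edgeR adjusted p = 0.458). Fibroblast markers were higher in 7 of 8, with a median of 1.46 and sums of 277 to 337 against 486 to 1430 CPM. T and NK cell markers were lower in 5 of 5 tested, with a median of -1.07 and sums of 61.6 to 108 against 13.5 to 53.4 CPM. Mammary epithelial markers were lower in 6 of 7, with a median of -1.3 and sums of 55 to 411 against 56.9 to 103 CPM. B cell markers were higher in 4 of 5 (median 0.95), mast cell markers in 5 of 6 (median 1.92) and endothelial markers in 4 of 5 (median 0.38), and of the 2 adipocyte markers tested 1 was lower and 1 higher (median 0.08).

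Monocyte markers had a median of -0.05, with 4 lower and 3 higher, and included *F13a1*, which encodes a coagulation factor subunit, at 1.97 ± 0.31 (SE, edgeR adjusted p = 0.012), and *Ccr2*, the chemokine receptor of blood monocytes, at -1.03 ± 0.37 (SE, edgeR adjusted p = 0.386). Macrophage markers were higher in 7 of 8, with a median of 0.71, led by *C1qa*, a complement gene, at 1.66 ± 0.33 (SE, edgeR adjusted p = 0.0376). *F13a1* and *C1qa* are in the gene list that the study chose on these libraries, and DESeq2 called both.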
